A study of Mus musculus with 42 samples.

Results

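The 10 genes examined here encode peptide hormones of the gut and were followed across 42 arrays of mouse stomach and intestine. They were taken by name as Gast, Sst, Ghrl, Gip, Cck, Sct, Gcg, Pyy, Nts and Tac1, 10 of the 22180 genes with a single symbol on the array, and each was read by 1 probe set. Values are log2 RMA intensities, so a difference of 1 is a doubling. Levels are compared between samples for the same gene, never between genes, because probe sets differ in how strongly they bind.

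These peptides are made by enteroendocrine cells, scattered secretory cells of the epithelium that arise from the same stem cells as their neighbours and release hormone from dense granules. Neurog3 starts the endocrine fate, factors such as Neurod1, Rfx6 and Isl1 shape the subtypes, and prohormone convertases and amidating enzymes cut and finish the peptides. The repertoire changes along the gut. Gastrin and somatostatin cells are typical of the pyloric antrum and ghrelin cells of the stomach, while GIP, CCK and secretin cells lie mostly in the upper small intestine. GLP-1 and PYY cells are most frequent further down.

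The study sorted stem and differentiated cells from adult, untreated, healthy mice of a minimum age of 7 to 8 weeks, not selected for sex, and asked which genes mark pyloric stem cells. In the line Lgr5-EGFP-IRES-CreERT2 (25 arrays, here the IRES line), the stem cell gene Lgr5 drives EGFP together with a tamoxifen-inducible Cre. No tamoxifen treatment is named in the labels. Its groups were the Lgr5Hi gate, called stem cells in the labels, and the Lgr5Lo gate, called differentiated cells, of pylorus (4 and 4 arrays), small intestine (2 and 2) and colon (3 and 3), with whole pyloric glands (2), whole small intestine (1), small intestinal crypts (2) and whole colon (2). In the line Lgr5-EGFP-DTR (9 arrays, here the DTR line), Lgr5 drives EGFP and the receptor for diphtheria toxin, and pyloric cells were sorted as Lgr5Hi stem cells, Lgr5Lo progenitors and Lgr5Neg differentiated cells (3 each). Wild-type pylorus (8 arrays) was sorted with an antibody to the water channel Aqp5 into Aqp5Pos and Aqp5Neg cells (4 each), both of which the labels call stem cells. One label field of the DTR arrays names the IRES line, and their titles were followed. Lines, gating and antibody differ together, so values of the 3 mouse models are set side by side and not tested against each other.

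Lgr5 and Aqp5 followed the gates: in the pylorus Lgr5 averaged 8.53 in IRES Lgr5Hi against 6.51 in Lgr5Lo, 8.73 in DTR Lgr5Hi against 4.60 in Lgr5Neg, and 8.38 in Aqp5Pos against 6.42 in Aqp5Neg, and every array of the first group lay above every array of the second. Aqp5 averaged 9.98 in IRES Lgr5Hi against 8.17 in Lgr5Lo and 10.44 in DTR Lgr5Hi against 7.70 in Lgr5Neg. It averaged 8.82 in Aqp5Pos against 7.18 in Aqp5Neg, and none of these groups overlapped. Aqp5Neg arrays still had Aqp5 at 6.95 to 7.41 and Lgr5 at 6.23 to 6.60, above the array medians. Unsorted libraries of 2 kinds went against their labels. The whole colon array numbered 1 had a mean of 12.80 over 6 pit cell markers of stomach surface and 5.59 over 6 goblet cell markers, where the other whole colon array had 4.27 and 11.45. It enters the spread of every IRES fit, and without it the differences given here kept their size while their SE and p changed. Of 130 hormone results in the IRES line, 7 gained a call without it and none lost one, and those 7 are given with their comparisons. The small intestinal crypt arrays had Lgr5 at 4.81 and 5.04, below 7.09 in whole small intestine, and a mean over 8 enterocyte markers of 11.64 and 11.66, above every other array. Array medians over all genes ran from 4.24 to 4.52, and a level near or under them may be background, which would understate a difference.

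The 250 bases before the RefSeq start of 4 of the genes are shown as examples: Gast and Sst, called in the DTR pylorus and higher in pylorus than in colon, and Gip and Cck, both lower in pylorus than in small intestine. All 10 genes were in the RefSeq promoter table (build GRCm38.p6). The sequences run 5′ to 3′ on the gene's strand, and capitals mark matches on either strand to TATAAA (the TATA box), TGACGTCA (the cAMP response element) or CATCTG (an E-box, the type of site that Neurod1-like factors bind).
Gast (chr11:100334157-100334406, plus strand): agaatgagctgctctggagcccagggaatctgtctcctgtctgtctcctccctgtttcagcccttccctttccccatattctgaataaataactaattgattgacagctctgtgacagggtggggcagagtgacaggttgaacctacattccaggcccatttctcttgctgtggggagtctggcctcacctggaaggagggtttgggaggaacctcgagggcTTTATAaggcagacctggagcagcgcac
Sst (chr16:23890845-23891094, minus strand): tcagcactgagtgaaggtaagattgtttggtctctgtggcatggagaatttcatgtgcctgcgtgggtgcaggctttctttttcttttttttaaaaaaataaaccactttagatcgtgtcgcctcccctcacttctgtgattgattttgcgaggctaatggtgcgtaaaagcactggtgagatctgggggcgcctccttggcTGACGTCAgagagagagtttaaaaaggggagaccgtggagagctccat
Gip (chr11:96024295-96024544, plus strand): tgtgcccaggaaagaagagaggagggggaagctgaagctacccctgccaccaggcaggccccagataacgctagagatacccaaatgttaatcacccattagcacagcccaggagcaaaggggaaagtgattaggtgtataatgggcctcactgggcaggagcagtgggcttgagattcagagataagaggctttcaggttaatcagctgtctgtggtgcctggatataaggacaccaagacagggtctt
Cck (chr9:121495695-121495944, minus strand): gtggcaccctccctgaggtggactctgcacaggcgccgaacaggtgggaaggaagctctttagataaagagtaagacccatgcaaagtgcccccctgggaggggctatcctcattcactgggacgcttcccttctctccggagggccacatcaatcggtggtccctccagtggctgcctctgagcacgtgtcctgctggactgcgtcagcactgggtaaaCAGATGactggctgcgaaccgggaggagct

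Gast held TATAAA, read on the other strand as TTTATA, at position -28 from the start, and 12.4% of the 32851 promoters in the table held that motif somewhere in their 250 bases. Sst held the full TGACGTCA at -48, as did 1.55% of promoters. Its first 5 bases, TGACG, a motif that lies within the full motif, were in 17.8% of promoters and stood at -47 in Cck. Cck also held CATCTG, as CAGATG, at -30, a motif found in 14.4% of promoters. Gip held none of the 3 motifs marked in capitals. No reading of factor binding follows from a match or from its absence.

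**Figure D1:**
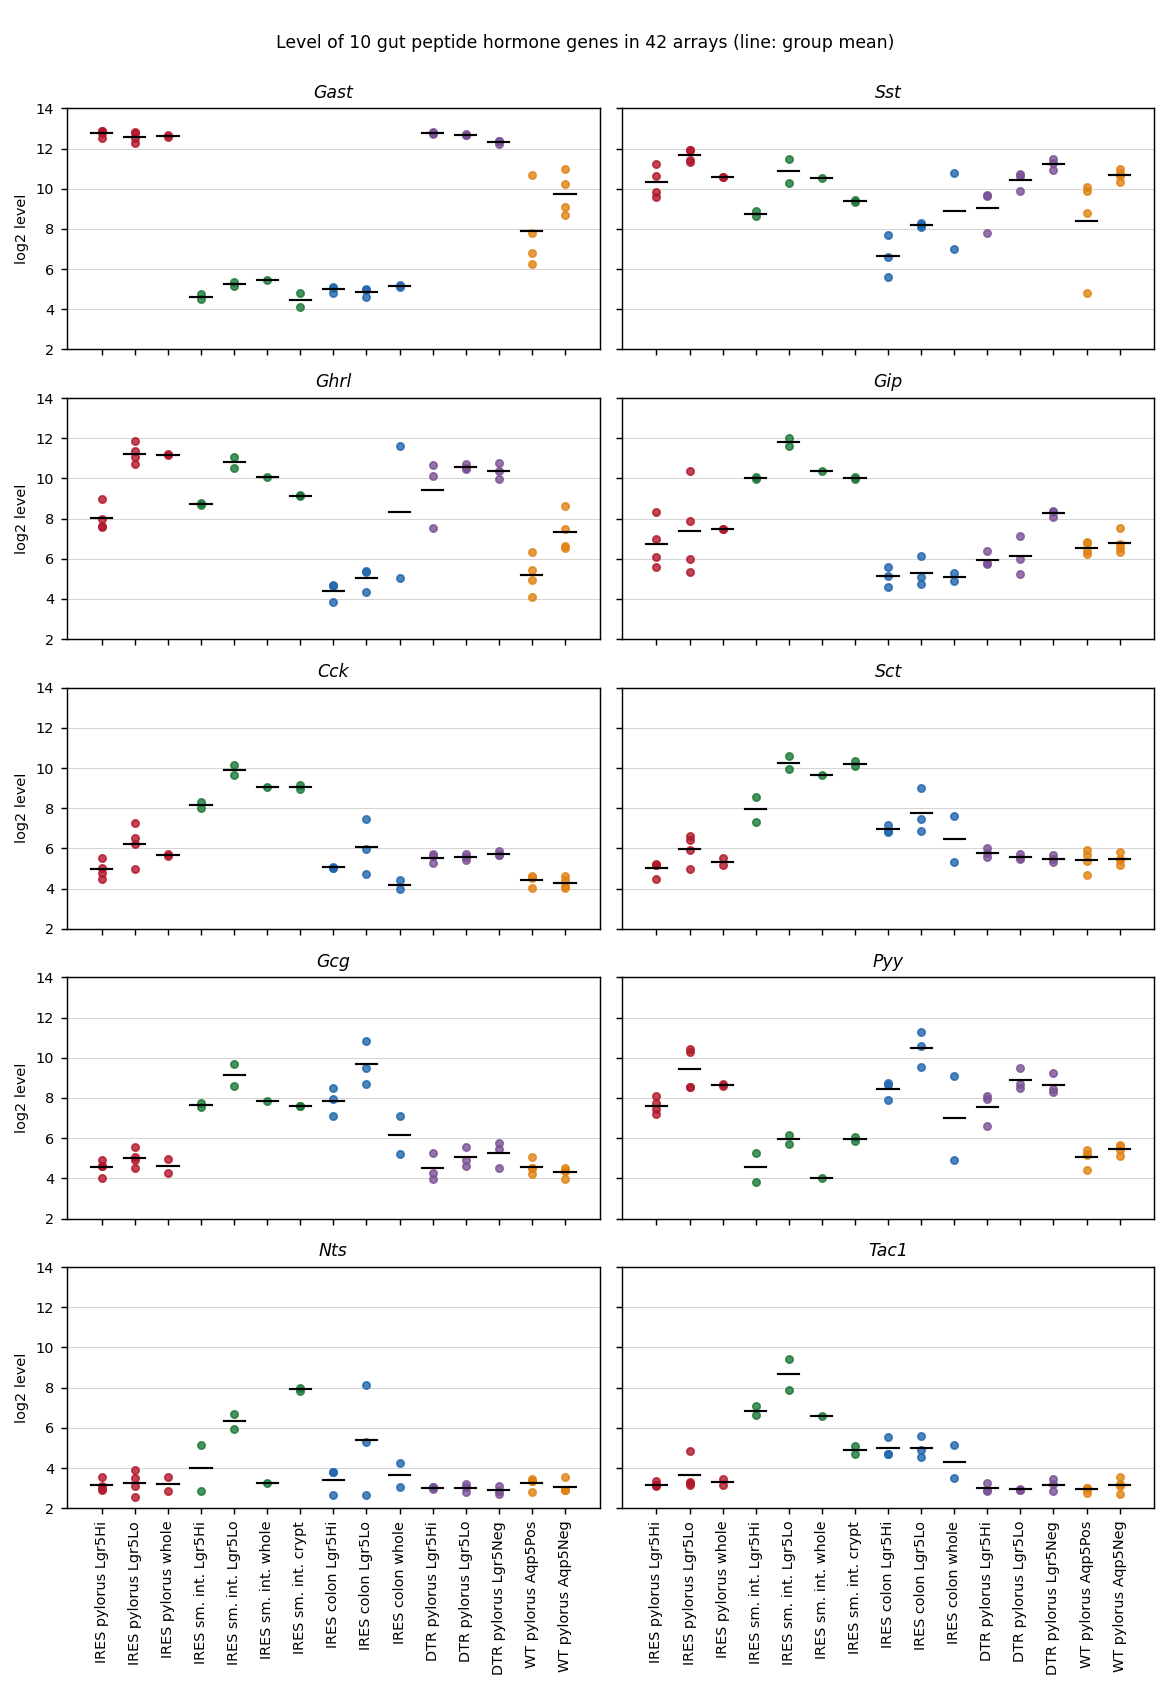
Log2 level (vertical axis) of each of the 10 hormone genes in all 42 arrays, by the 15 groups (horizontal axis); points are arrays, black lines are group means, and colours separate pylorus, small intestine and colon of the IRES line, the DTR line and the wild type. Gast separates pylorus from intestine, Gip, Cck, Sct and Tac1 are highest in small intestine, and the whole colon array numbered 1 shows as the high point for Sst and Ghrl among colon arrays.

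Gastrin, the antral hormone that drives acid secretion, was high in pylorus and near the array medians in intestine. In the IRES Lgr5Lo gate Gast was 12.27, 12.77, 12.80 and 12.52 in pylorus, 5.34 and 5.14 in small intestine, and 4.94, 5.02 and 4.60 in colon. Pylorus was thus far above both intestines in every array. The difference was 7.35 ± 0.22 (log2, SE from limma, a moderated linear model fitted over all genes; adjusted p = 9.42e-16) against small intestine and 7.74 ± 0.20 (adjusted p = 2.08e-17) against colon. It was as large in the Lgr5Hi gate, at 8.13 ± 0.22 and 7.76 ± 0.20. Lgr5Hi cells of the IRES pylorus had Gast at 12.52, 12.89, 12.87 and 12.75, overlapping Lgr5Lo cells, and the difference was 0.17 ± 0.18 (adjusted p = 0.775).

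Counted over the 10 hormones, calls at an adjusted p under 0.05 between tissues ran well beyond the share of all genes called. The 10 were picked as hormones that change along the gut, with earlier results of these data known. The excess therefore describes the chosen genes and is no test. Between pylorus and small intestine, 8 of 10 hormones were called in the Lgr5Lo gate, 2 higher and 6 lower in pylorus, where 8.17% of all genes were called, and 7 of 10 in the Lgr5Hi gate, 2 higher and 5 lower, where 12.4% were. Between pylorus and colon 5 of 10 were called in Lgr5Lo (3 higher, 2 lower, background 6.34%) and 6 of 10 in Lgr5Hi (3 higher, 3 lower, background 7.12%). Small intestine and colon differed in 7 of 10 in Lgr5Lo (6 higher in small intestine, background 4.46%) and in 5 of 10 in Lgr5Hi (4 higher, background 2.60%). The median difference of the hormones between pylorus and small intestine in Lgr5Lo was -3.36, beside 0.11 over all genes. These comparisons share groups, so their calls are not independent. The last count was 2 without the first small intestinal Lgr5Hi array and 3 without the second. Without the whole colon array numbered 1 the 6 counts were 8 and 8 for pylorus against small intestine, 6 and 6 for pylorus against colon, and 7 and 6 for small intestine against colon, Lgr5Lo first. With the array included, Sst in the 2 Lgr5Hi comparisons with small intestine and Tac1 between pylorus and colon in Lgr5Lo missed the call.

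**Figure D2:**
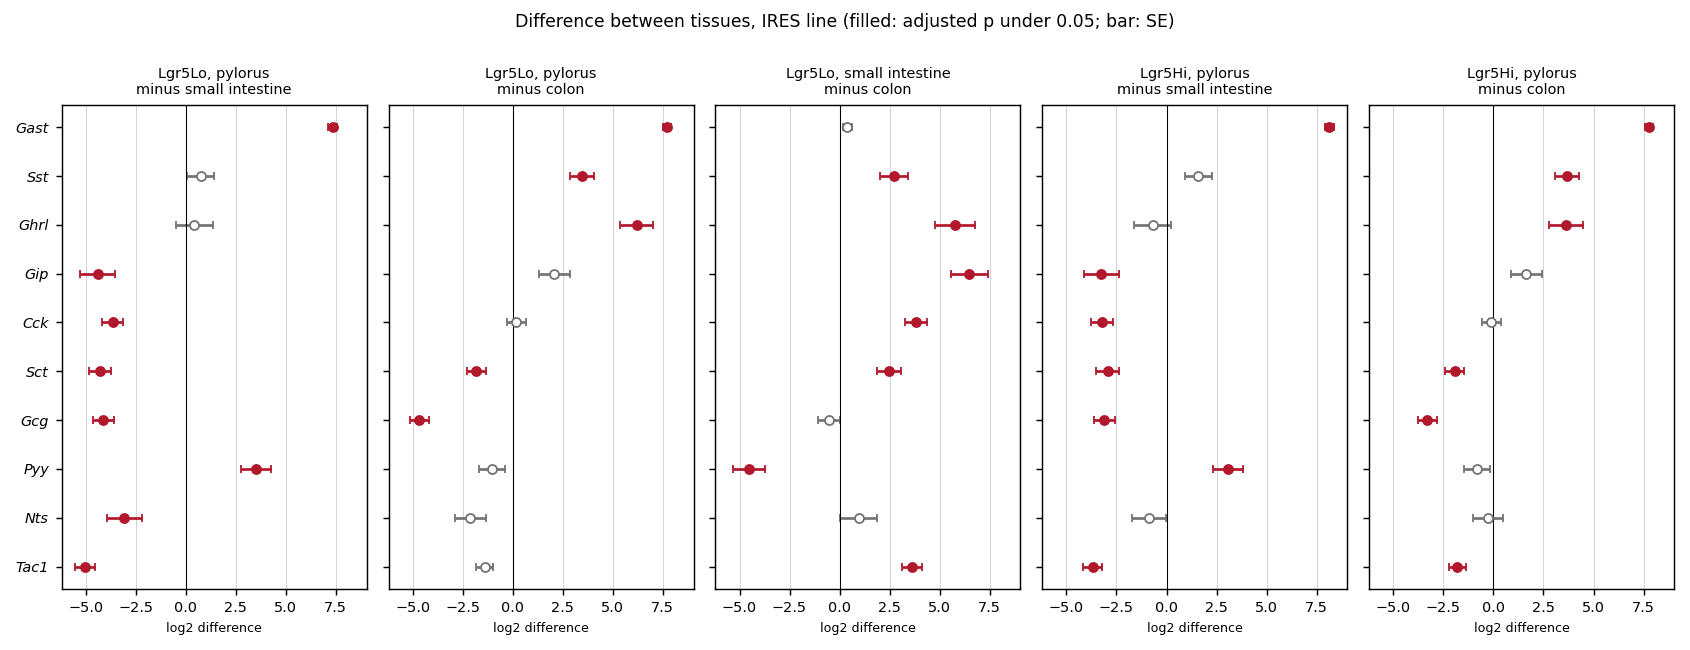
Difference in log2 level between tissues (horizontal axis) for the 10 hormone genes (vertical axis) in the Lgr5Lo and Lgr5Hi gates of the IRES line; points are limma estimates, bars are SE, and filled red points passed an adjusted p of 0.05. Gast lies near 8 in every comparison with pylorus, Gip, Cck, Sct, Gcg and Tac1 lie left of 0 for pylorus minus small intestine, and Pyy lies to the right.

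Somatostatin, which restrains the other endocrine cells, and ghrelin, the hunger hormone that is acylated by Mboat4, were shared by pylorus and small intestine in the Lgr5Lo gate. Sst in Lgr5Lo was 11.33, 11.95, 11.92 and 11.42 in pylorus, 11.50 and 10.29 in small intestine, and 8.19, 8.07 and 8.28 in colon. The first 2 tissues overlapped and colon lay below both. Sst was higher than in colon by 3.47 ± 0.59 in pylorus (adjusted p = 0.000511) and by 2.71 ± 0.70 in small intestine (adjusted p = 0.0248). The second call was lost in 6 of 14 alternatives, with an adjusted p of at most 0.437. In Lgr5Hi, Sst was 9.60 to 11.22 in pylorus, above 8.62 and 8.87 in small intestine. That difference was called in 3 of 15 alternatives, among them the fit without the whole colon array numbered 1 (1.58 ± 0.44, adjusted p = 0.0181). Ghrl overlapped in Lgr5Hi, at 7.57 to 8.95 in pylorus and 8.77 and 8.70 in small intestine. Ghrl in Lgr5Lo was 10.70, 11.84, 11.04 and 11.36 in pylorus and 11.07 and 10.52 in small intestine, but only 4.35, 5.39 and 5.36 in colon, close to the array medians. Ghrl exceeded colon by 6.20 ± 0.83 in pylorus (adjusted p = 4.53e-05) and by 5.76 ± 0.99 in small intestine (adjusted p = 0.000628). The SE of the pylorus value was 0.33 without the whole colon array numbered 1, which read 11.59 for Ghrl.

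The hormones of the upper small intestine were low in pylorus. Gip, the incretin made by K cells, was 12.00 and 11.60 in Lgr5Lo cells of small intestine, 5.07, 6.12 and 4.73 in colon, and 5.36, 10.39, 5.99 and 7.86 in pylorus. The small intestinal arrays were above all others, and the pyloric arrays numbered 2 and 4 stood well above the other 2. Gip was lower in pylorus than in small intestine (-4.40 ± 0.87, adjusted p = 0.00186). The pyloric Lgr5Lo arrays numbered 2 and 4 also had the higher means over 5 Paneth cell markers, 6.30 and 7.96, against 4.44 and 4.92, where small intestinal Lgr5Lo had 11.63 and 11.65. Their part in the Gip values was not tested.

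Cck, the satiety and gallbladder hormone of I cells, was 10.15 and 9.64 in small intestinal Lgr5Lo cells and 7.25, 6.22, 4.99 and 6.51 in pyloric ones. No arrays overlapped, and the difference was -3.65 ± 0.53 (adjusted p = 6.61e-05). Sct, secretin, which calls for bicarbonate from the pancreas, was 10.59 and 9.94 in small intestine, 6.85, 7.48 and 9.03 in colon, and 4.98, 6.60, 5.91 and 6.40 in pylorus. Pylorus was the lowest of the 3 tissues, by -4.29 ± 0.56 from small intestine (adjusted p = 1.68e-05) and by -1.81 ± 0.49 from colon (adjusted p = 0.028). The second call was lost in 6 of 16 alternatives, 4 of them the omission of 1 array of the compared groups.

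The distal hormones split. Gcg, which encodes GLP-1 and GLP-2 as well as glucagon, was 9.70 and 8.57 in Lgr5Lo cells of small intestine, 8.67, 9.50 and 10.85 in colon, and 4.51, 4.89, 5.58 and 5.08 in pylorus. Both intestinal tissues were above pylorus in every array. Gcg was lower in pylorus than in small intestine by -4.12 ± 0.52 (adjusted p = 1.12e-05) and than in colon by -4.66 ± 0.46 (adjusted p = 1.6e-06).

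Pyy, the ileal and colonic brake on feeding that is often made by the same cells as GLP-1, did not follow Gcg into small intestine. Pyy in Lgr5Lo was 9.56, 10.59 and 11.28 in colon, 8.55, 10.45, 10.29 and 8.52 in pylorus, and 6.17 and 5.70 in small intestine. Pylorus and colon overlapped, and small intestine lay below both. Pyy was higher in pylorus than in small intestine by 3.52 ± 0.75 (adjusted p = 0.00373), a call lost without the second small intestinal Lgr5Lo array (adjusted p = 0.0616), and lower in small intestine than in colon by -4.54 ± 0.79 (adjusted p = 0.00076). In Lgr5Hi cells the same 2 differences were 3.08 ± 0.75 and -3.89 ± 0.79. Both were lost without the first small intestinal Lgr5Hi array (adjusted p = 0.20 and 0.207).

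Nts, neurotensin of the ileum, and Tac1, the substance P precursor of enterochromaffin cells and enteric neurons, were near background in the pylorus. Across all 25 arrays of sorted pylorus Nts stayed between 2.58 and 3.89, and Tac1 between 2.70 and 3.53 apart from 4.85 in the IRES Lgr5Lo array numbered 3. In small intestinal Lgr5Lo cells Tac1 was 9.44 and 7.88 and Nts 6.69 and 5.96. Tac1 was lower in pylorus by -5.03 ± 0.48 (adjusted p = 2.43e-07) and Nts by -3.06 ± 0.86 (adjusted p = 0.0284). The Nts call was lost in 6 of 15 alternatives, among them the omission of either small intestinal array or of the pyloric Lgr5Lo arrays numbered 2 or 4 (highest adjusted p = 0.264). In colon Lgr5Lo cells Nts spread from 2.68 through 5.28 to 8.15, so no level can be given for that group.

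Crypt arrays and Lgr5Lo cells of small intestine differed most in Tac1. Tac1 was 5.08 and 4.71 in crypts, 9.44 and 7.88 in Lgr5Lo and 7.10 and 6.62 in Lgr5Hi cells. Crypts were below both sorted gates, and Tac1 was the 1 hormone of 10 called, at -3.77 ± 0.55 (adjusted p = 0.000171), where 6.15% of all genes were called. Nts stood at 7.82 and 8.00 in crypts, above all other arrays but 1 colon array at 8.15, and its difference of 1.59 ± 0.99 did not pass (adjusted p = 0.481). Without the whole colon array numbered 1, Ghrl was called too, at -1.66 ± 0.43 (adjusted p = 0.0191). The endocrine factors Rfx6, Nkx2-2 and Neurog3 were lower in crypts than in Lgr5Lo cells (-2.15, -1.74 and -1.67). Enterocyte markers were higher in crypts by a median of 1.27, with 1 of 8 called, and 3 of 8 immune cell markers were higher. Their part in the Tac1 difference was not tested.

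In whole pyloric glands against Lgr5Lo cells no hormone of 10 was called, where 2.12% of all genes were called at an adjusted p under 0.05 in limma, and no hormone had an unadjusted p under 0.05 either. Ghrl was 11.20 and 11.15 in whole glands, within the Lgr5Lo range, and Sst was 10.57 in both, below all 4 Lgr5Lo arrays, at -1.09 ± 0.67 (adjusted p = 0.453).

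Within a tissue, the Lgr5Hi gate of the IRES pylorus carried less ghrelin signal. Ghrl was 7.65, 8.95, 7.96 and 7.57 in Lgr5Hi and 10.70, 11.84, 11.04 and 11.36 in Lgr5Lo cells. Every bright array lay below every dim one. Ghrl fell by 3.20 on the log2 scale, 9.22-fold (-3.20 ± 0.77, adjusted p = 0.0351), and was the 1 hormone of 10 called where 1.49% of all genes were called. Without the whole colon array numbered 1 the SE was 0.30 and the adjusted p 3.61e-06. Omission of any single array of these 2 gates except the Lgr5Hi array numbered 2 ended the call with that array still in the fit (highest adjusted p over all alternatives 0.101). In bulk RNA, fewer cells of a type and less RNA per cell cannot be told apart.

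Pyy in the same gates was 7.18, 8.09, 7.77 and 7.43 in Lgr5Hi and 8.55, 10.45, 10.29 and 8.52 in Lgr5Lo, again without overlap. Its difference of -1.84 ± 0.61 missed the call (adjusted p = 0.157), but passed with the replicate number as a block (adjusted p = 0.0457) and without the whole colon array numbered 1 (adjusted p = 0.0213). Sst, at 10.62, 11.22, 9.60 and 9.86 against 11.33, 11.95, 11.92 and 11.42, also did not overlap, with a difference of -1.33 ± 0.54 (adjusted p = 0.266). In all, 9 of 10 hormones had the lower mean in Lgr5Hi, where 54.7% of all genes did. The median difference was -0.80 beside -0.04 over all genes. Of the 9, Nts and Tac1 were near background and Gcg was close to the array medians, so their signs carry little weight. Ghrl, Pyy and Sst lay wholly below Lgr5Lo, as did 2.95% of all genes. Cck (-1.29 ± 0.43, adjusted p = 0.157) overlapped through 1 Lgr5Lo array at 4.99.

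Few other endocrine genes of the IRES pylorus were called, beside 1.49% of all genes. Of 25 endocrine transcription factors 2 were lower in Lgr5Hi: Neurog3, the switch into the endocrine lineage (-1.88 ± 0.34, adjusted p = 0.00696), and Prox1 (-1.46 ± 0.35, adjusted p = 0.0369). Of 20 granule and amine genes none was called, at a median of -0.42, and Chga, the granule protein chromogranin A, was at -1.74 ± 0.57 (adjusted p = 0.149). Among 16 nutrient sensors, Ffar2, a receptor for short fatty acids, was higher (0.94 ± 0.23, adjusted p = 0.0399) and Abcc8, a subunit of the ATP-sensitive potassium channel, lower (-0.95 ± 0.18, adjusted p = 0.00956). Mboat4, the ghrelin acyltransferase, stood at 3.86 and 4.20, under the array medians. None of 12 processing enzymes, 24 other peptides or 22 hormone receptors was called. Enterocyte markers had a median of -1.57 (0 of 8 called), with array means of 5.12 to 6.33 in Lgr5Hi and 6.50 to 8.06 in Lgr5Lo, and 2 of 12 tuft cell markers were lower, with array means of 5.36 to 7.20 against 6.38 to 7.22. Pit cell markers had array means of 10.25 to 11.99 against 12.01 to 12.33 (0 of 6 called). Their part in the hormone differences was not tested.

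**Figure D3:**
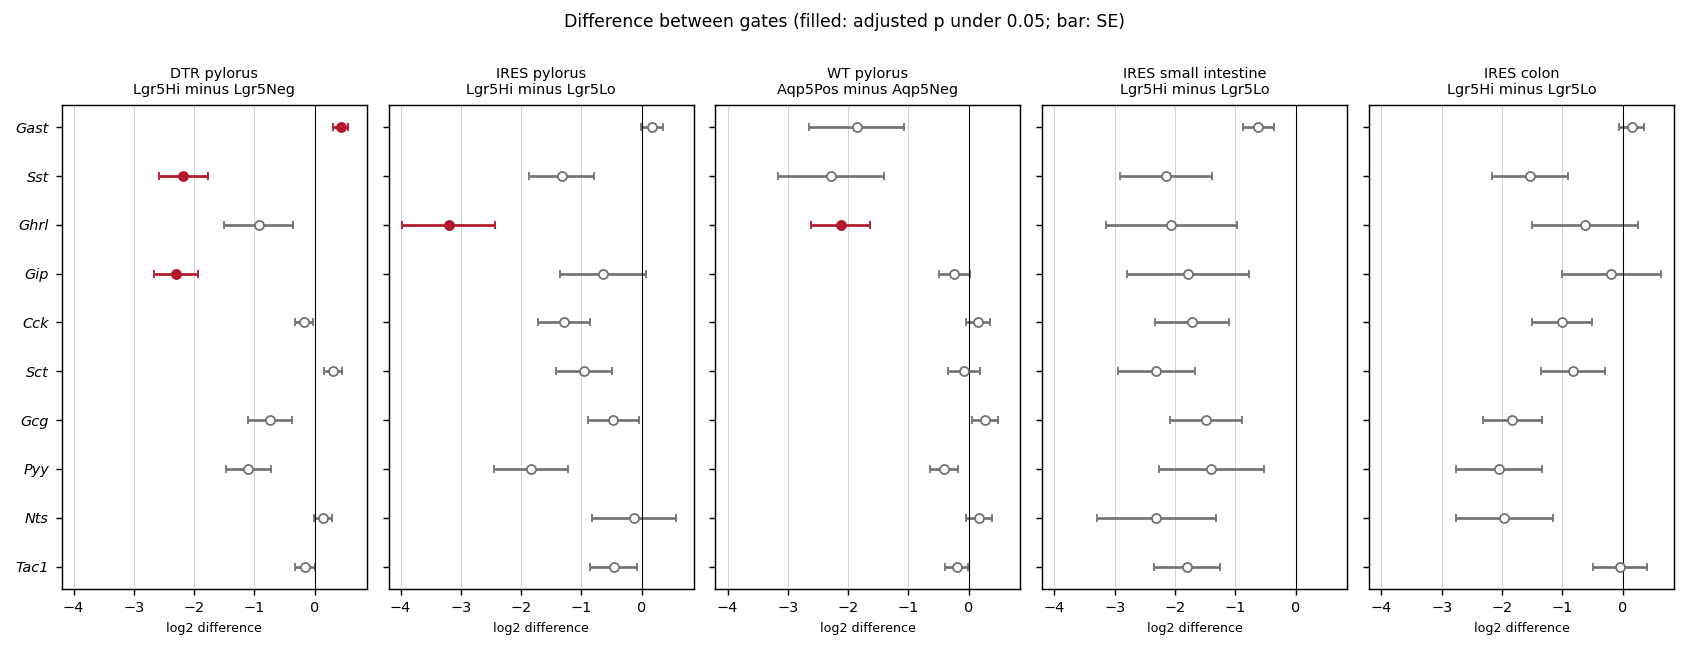
Difference in log2 level between the bright or antibody-positive gate and the dim or negative gate (horizontal axis) for the 10 hormone genes (vertical axis) in 5 comparisons; points are limma estimates, bars are SE, and filled red points passed an adjusted p of 0.05. Ghrl passed in the IRES and wild-type pylorus, Gast, Sst and Gip in the DTR pylorus, and all 10 points of the small intestine lie left of 0 with none called.

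In the DTR pylorus the called hormones were others. Sst was 7.78, 9.69 and 9.65 in Lgr5Hi, 10.62, 9.89 and 10.72 in Lgr5Lo, and 11.48, 11.26 and 10.93 in Lgr5Neg cells. Lgr5Hi lay below both other gates in every array. Sst fell by 2.18 from Lgr5Neg to Lgr5Hi, 4.54-fold (-2.18 ± 0.41, adjusted p = 0.00212). Between Lgr5Hi and Lgr5Lo the difference was -1.37 ± 0.41 (adjusted p = 0.0819).

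Gip was 5.72, 6.38 and 5.78 in DTR Lgr5Hi, 7.15, 5.98 and 5.25 in Lgr5Lo, and 8.07, 8.33 and 8.39 in Lgr5Neg cells. The Lgr5Neg gate alone was high. Gip was lower than in Lgr5Neg by -2.30 ± 0.36 in Lgr5Hi (4.94-fold, adjusted p = 0.000563) and by -2.13 ± 0.36 in Lgr5Lo (adjusted p = 0.00709). The first of these calls held in all 14 alternatives, and the second was lost only in the fit over all 42 arrays. Of 6 goblet cell markers, 4 were lower in Lgr5Hi and 3 in Lgr5Lo than in Lgr5Neg. Their array means were 4.74 to 4.93, 5.42 to 5.86 and 6.19 to 7.14 in the 3 gates. Of 8 enterocyte markers 2, Fabp2 and Alpi, were lower in both. Beside these counts, 18.3% of all genes were called between Lgr5Hi and Lgr5Neg and 2.2% between Lgr5Lo and Lgr5Neg, in either direction. Paneth cell markers did not follow, with array means of 4.14 to 4.58, 3.91 to 4.25 and 4.10 to 4.37. The part of these cell types in the Gip difference was not tested.

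Gast in the DTR gates was 12.70, 12.79 and 12.83, then 12.66, 12.73 and 12.68, then 12.24, 12.38 and 12.39. It was the 1 hormone called higher in Lgr5Hi than in Lgr5Neg, by 0.43 ± 0.12 (1.35-fold, adjusted p = 0.0248), and the arrays did not overlap. The call was lost in 7 of 14 alternatives, 5 of which each left out 1 Lgr5Hi or Lgr5Neg array (the Lgr5Hi arrays 2 and 3 and all 3 Lgr5Neg arrays). Ghrl was 7.54, 10.66 and 10.13 in Lgr5Hi, 10.47, 10.54 and 10.71 in Lgr5Lo, and 10.76, 10.37 and 9.98 in Lgr5Neg cells. The gates overlapped, the first Lgr5Hi array alone was low, and no Ghrl difference was called (Lgr5Hi against Lgr5Neg -0.93 ± 0.57, adjusted p = 0.324). The same array was the lowest of its group for Sst and, at 6.59 against 8.11 and 7.96, for Pyy, which differed from Lgr5Neg by -1.10 ± 0.38 (adjusted p = 0.0638). That Pyy difference was called without the Lgr5Hi array numbered 2 (adjusted p = 0.0346) and with low values filtered.

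Set against the background, 3 of 10 hormones were called between DTR Lgr5Hi and Lgr5Neg where 18.3% of all genes were. The 3 hormones wholly lower there compare with 16.1% of genes so placed. Between Lgr5Hi and Lgr5Lo none of 10 was called by limma where 4.97% of genes were, and 2 had an unadjusted p under 0.05. Between Lgr5Lo and Lgr5Neg 1 was called where 2.20% of genes were. With the DTR Lgr5Hi array numbered 2 left out, Sst and Pyy were called between Lgr5Hi and Lgr5Lo, and with array 3 left out Gcg was called between Lgr5Hi and Lgr5Neg (adjusted p = 0.045).

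Parts of the secretory machinery were higher in DTR Lgr5Hi cells, where Sst and Gip were lower, beside the 18.3% of all genes called in either direction. Several of the counts that follow lie near or below that share, such as 2 of 22 hormone receptors and 3 of 16 sensors. Of 12 processing enzymes 6 were higher than in Lgr5Neg, at a list median of 0.54. They included Pam, which amidates peptides (1.35 ± 0.16, adjusted p = 6.94e-05), the carboxypeptidases Cpd (1.08 ± 0.15) and Cpe (1.21 ± 0.21, adjusted p = 0.00112), and Ctsl. Of 20 granule and amine genes 5 were higher, led by Resp18 (0.94 ± 0.18, adjusted p = 0.00246), Ptprn2 (0.76 ± 0.16) and Chga (1.07 ± 0.26, adjusted p = 0.0106), and 1, the calcium binder Scgn, was lower (-1.13 ± 0.30, adjusted p = 0.0171). Of the 25 transcription factors listed as endocrine 3 were higher, among them Bhlha15 (1.57 ± 0.20) and Sox4 (0.83 ± 0.18), neither of them particular to endocrine cells. Isl1 (-0.84 ± 0.22, adjusted p = 0.0158) and Hhex, a factor of somatostatin cells, were lower (-0.57 ± 0.15, adjusted p = 0.0173). Of 24 other peptides 3 were higher, including Nucb2, the nesfatin precursor (1.34 ± 0.12), and Edn1, endothelin 1 (1.83 ± 0.15), and Iapp, amylin, was lower at levels under the array medians. Cckar, a receptor for cholecystokinin, was higher by 2.75 ± 0.32 (adjusted p = 7.98e-05), one of 2 called among 22 hormone receptors. Ffar2 (1.52 ± 0.17), Grpr and Galr1 were the 3 called of 16 nutrient and signal sensors, all higher.

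Beside these DTR results, the tuft cell list was higher in Lgr5Hi than in Lgr5Neg in 8 of 12 markers (median 1.34, array means 6.45 to 7.39 against 5.54 to 6.16), all 6 pit cell markers were lower (6.99 to 8.00 against 11.65 to 11.93), and 4 of 5 gland mucous cell markers were higher (11.72 to 11.86 against 8.64 to 9.01). Of 8 enteroendocrine markers 1 was higher and 1 lower (6.10 to 6.76 against 6.09 to 6.43). These marker counts also stand beside the 18.3% of all genes called in either direction. Their part in the hormone and granule differences was not tested.

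In wild-type pylorus sorted by Aqp5, ghrelin was lower in the positive gate. Ghrelin was also called lower in the bright gate of the IRES pylorus, but not of the DTR pylorus. Ghrl was 6.36, 4.10, 5.42 and 4.96 in Aqp5Pos and 7.46, 6.56, 8.64 and 6.63 in Aqp5Neg cells. The Aqp5Pos value of 4.10 lay under the range of the array medians and may be background. The gates did not overlap, and the difference was -2.12 ± 0.49 (4.33-fold, adjusted p = 0.0429), the 1 call among 10 hormones where 2.80% of all genes were called. That call was lost in 10 of 16 alternatives, including the omission of each array but the first Aqp5Pos one (highest adjusted p = 0.138). Sst was 8.81, 9.91, 10.11 and 4.80 in Aqp5Pos and 10.64, 11.00, 10.76 and 10.35 in Aqp5Neg. These gates did not overlap either, yet the fourth Aqp5Pos array stood far below the others, and the difference of -2.28 ± 0.88 was not called (adjusted p = 0.183). The 2 hormones wholly lower in Aqp5Pos compare with 6.68% of genes.

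Gast was more variable in the wild type than in either reporter line, at 10.69, 7.79, 6.80 and 6.23 in Aqp5Pos and 8.69, 10.22, 10.96 and 9.07 in Aqp5Neg, against at least 12.24 in every array of sorted IRES and DTR pylorus. The Aqp5 gates overlapped through the first Aqp5Pos array, and the difference of -1.86 ± 0.79 passed only without that array (adjusted p = 0.018) or in the fit over all 42 arrays. Pyy (4.43 to 5.67) and Cck (4.02 to 4.62) were low in all wild-type arrays, where IRES and DTR pylorus had Pyy at 6.59 or more. Enteroendocrine markers were low there too, with array means of 4.03 to 4.87 in Aqp5Pos and 4.48 to 4.87 in Aqp5Neg, against 5.83 to 6.69 in IRES Lgr5Lo.

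Few other endocrine genes passed in the wild type, where 2.80% of all genes were called, 121 higher and 500 lower in Aqp5Pos. Sctr, the secretin receptor, was lower in Aqp5Pos (-1.08 ± 0.17, adjusted p = 0.0076), 1 of 22 receptors, and Ffar2 was higher (1.15 ± 0.22, adjusted p = 0.0179), 1 of 16 sensors. None of 20 granule genes, 12 processing enzymes, 25 factors or 24 other peptides was called. Tuft cell markers were lower in 7 of 12, with array means of 4.55 to 4.76 against 5.68 to 6.10, and pit cell markers in 6 of 6 (9.98 to 10.97 against 11.98 to 12.09). Their part in the ghrelin difference was not tested.

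**Figure D4:**
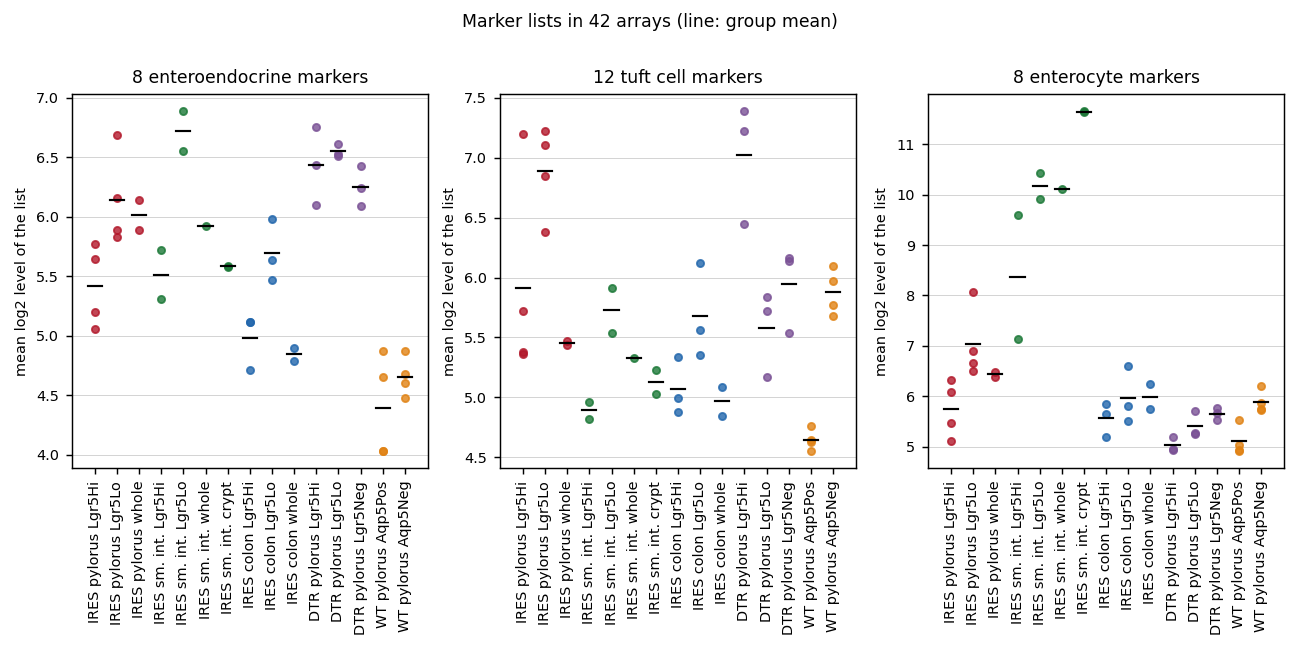
Mean log2 level (vertical axis) over 8 enteroendocrine, 12 tuft cell and 8 enterocyte marker genes in each of the 42 arrays, by group (horizontal axis); points are arrays and black lines group means. Enteroendocrine markers are low in the wild-type arrays, at 4.03 to 4.87, and enterocyte markers highest in the small intestinal crypt arrays, at 11.64 and 11.66.

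In the small intestine every hormone was lower in Lgr5Hi than in Lgr5Lo cells, yet none passed. Sct was 7.34 and 8.57 against 10.59 and 9.94, and Sst was 8.62 and 8.87 against 11.50 and 10.29. Gip was 10.05 and 9.98 against 12.00 and 11.60, and Ghrl 8.77 and 8.70 against 11.07 and 10.52. In all 10 genes both bright arrays lay below both dim ones, where 15.8% of all genes did, and the median difference was -1.79 beside 0.02 over all genes. Gast was close to the array medians in both gates (4.49 and 4.76 against 5.34 and 5.14), so its sign carries little weight. Pyy (3.82 and 5.26) and Nts (2.88 and 5.14) each had 1 Lgr5Hi array under the array medians. Sct had the smallest p (-2.31 ± 0.64, adjusted p = 0.243), 7 of 10 had an unadjusted p under 0.05, and limma called 0.185% of all genes. Without the whole colon array numbered 1, Ghrl was called (-2.06 ± 0.43, adjusted p = 0.0384).

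Among other endocrine genes of the small intestine, Ucn3, a peptide of the urocortin family (-2.19 ± 0.31, adjusted p = 0.00229), and Rfx6 (-1.51 ± 0.31, adjusted p = 0.0465) were lower in Lgr5Hi. They were the 1 of 24 peptides and the 1 of 25 factors called, beside 0.185% of all genes. Granule genes had a median of -0.86 with 0 of 20 called. Enterocyte markers had a median of -2.08 (0 of 8 called) and goblet cell markers -1.42 (0 of 6), and their part was not tested.

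Colon showed the same direction in 9 of 10 hormones, where 49.5% of all genes had the lower mean in Lgr5Hi. Of the 9, Tac1 (means 4.98 against 5.02) and Gip (5.12 against 5.31) hardly differed, and Ghrl (4.40 against 5.03) was near background. No call was made in limma among the hormones or among all genes (0%), while 4 hormones and 1000 genes had an unadjusted p under 0.05. Pyy was 7.89, 8.66 and 8.72 in Lgr5Hi and 9.56, 10.59 and 11.28 in Lgr5Lo, and Gcg was 7.10, 7.94 and 8.50 against 8.67, 9.50 and 10.85. Sst was 6.59, 5.62 and 7.71 against 8.19, 8.07 and 8.28. These 3 did not overlap, which held for 8.63% of all genes in that direction, and their differences were -2.05 ± 0.71, -1.83 ± 0.49 and -1.54 ± 0.63 (adjusted p = 1, 0.7 and 1). With arrays weighted by quality all 3 were called. The limma fit with the replicate number as a block called none of them (adjusted p = 0.406 for Pyy, 0.0707 for Gcg and 0.61 for Sst). The median of the 10 was -0.92 beside 0 over all genes.

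The gate difference itself was compared between tissues as an interaction. No hormone of 10 was called in limma, either for pylorus against small intestine, where 0.0316% of genes were, or for pylorus against colon, where 0.225% were, and 1 and 2 hormones had an unadjusted p under 0.05. For Ghrl the bright-minus-dim difference was lower in pylorus than in colon by -2.57 ± 1.17 (adjusted p = 0.553), which passed without the whole colon array numbered 1 (± 0.47, adjusted p = 0.0152). Ghrl of colon was near background in both gates, which limits how far it could fall there.

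Part of the wider endocrine set also differed between regions. Insl5, the insulin-like peptide of colonic L cells, was lower in pyloric than in colonic Lgr5Lo cells by -4.38 ± 0.52 (adjusted p = 1.46e-05), and Ucn3 lower in pylorus than in small intestine by -2.04 ± 0.27 (adjusted p = 2.14e-05). Penk, proenkephalin, was higher in pylorus than in small intestine (1.35 ± 0.31, adjusted p = 0.006). The counts that follow stand beside 8.17% of all genes called between pylorus and small intestine and 6.34% between pylorus and colon, and several lie near or below those shares. Of 24 other peptides 2 were higher and 3 lower in pylorus than in small intestine, and 1 higher and 3 lower than in colon. Of 25 factors 4 were higher than in small intestine, including Nkx6-3, a factor of antral endocrine cells (2.62 ± 0.33, adjusted p = 1.25e-05), Foxa1 (3.06 ± 0.32) and Foxa2 (1.31 ± 0.30, adjusted p = 0.00622), and 2 were lower, led by Rfx6 (-1.84 ± 0.27). Granule and amine genes differed in fewer members: Slc18a1, Ddc and Scg2 were the 3 of 20 lower than in small intestine, and Scg3, Ptprn and Syp the 3 of 20 higher than in colon. Chga did not pass between any pair of tissues, and was at -0.55 ± 0.70 between pylorus and small intestine (adjusted p = 0.68). Nutrient sensors were lower in pylorus than in colon in 4 of 16, led by Ffar4, a receptor for long fatty acids (-3.57 ± 0.42, adjusted p = 1.31e-05). Of 22 hormone receptors Cckar alone was higher in pylorus than in small intestine (3.13 ± 0.96, adjusted p = 0.0456), and 3 of 22 were higher without the whole colon array numbered 1. Markers of the tissue's other cells differed as well: in Lgr5Lo all 6 pit cell markers were higher in pylorus than in small intestine (median 8.29), and 5 of 8 enterocyte markers were lower (median -3.86).

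Across all 42 arrays, which share tissue and gate, the members grouped by region. The pairs most alike were Tac1 with Sct (Pearson r = 0.84), Sct with Cck (0.83), Tac1 with Gcg (0.82), Gcg with Sct (0.81) and Nts with Sct (0.80). Cck with Gip and Tac1 with Cck followed (0.74 each), then Ghrl with Sst (0.73). Among 3087 genes that varied between groups, the profile most like Gast was that of Tmem213 (r = 0.93), then Meis1 (0.90) and Nkx6-3 (0.89). Sst and Ghrl were both most like Ces2g (0.81 and 0.79), with Ptgr1 (0.71) and Lgals2 (0.69) next for Sst, and Casp6 (0.78) and the granule gene Scg3 (0.77) next for Ghrl. Gip was most like Tm4sf5, Ugt2a3 and Dnm1 (0.80 each as rounded), Cck like Prap1, Arg2 and Aldh18a1 (0.90, 0.90 and 0.89), and Sct like Slc51a, Slc13a1 and Pnp2 (0.94, 0.93 and 0.93). Gcg was most like Reg4, Cldn15 and Nr5a2 (0.93, 0.92 and 0.92), and Pyy like S100a16, Stk38l and Papss1 (0.79, 0.78 and 0.78). Nts was most like Clec2e, Sema6d and Ceacam18 (0.86, 0.86 and 0.83), and Tac1 like Mmd, Ccl9 and Mmp7 (0.92, 0.90 and 0.90). These correlations describe the arrays and carry no test.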

How the data were processed

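RNA of sorted cells, crypts and whole glands was amplified and hybridised to Affymetrix mouse arrays. The deposited table holds log2 values per probe set; RMA, oligo, limma 3.26.8, R 3.2.3 and Partek are named, without role or order, per the submitters' processing notes. Build and annotation are not given in the sources used here, and the number of arrays limits the precision. Raw files were not used. Of 41345 probe sets, 23521 had 1 symbol, 1814 several and 16010 none. That gave 22180 genes, of which 1082 had more than 1 probe set and were read by their brightest on average.

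Groups came from sample titles. Each mouse model had its own limma fit (limma 3.58.1, R 4.3.3), with group means as coefficients and eBayes. P-values were adjusted over the 22180 genes by Benjamini-Hochberg, and calls were made below 0.05. The script was tested on simulated data. The p-values measure the spread between arrays that the labels call biological replicates. The labels do not say which arrays share an animal. Replicate numbers were taken to pair the Lgr5Hi and Lgr5Lo arrays of IRES pylorus (correlations of deviations 0.104 to 0.296) and IRES colon (0.136 to 0.242) because every pair exceeded 0.1. The pairing comes from those deviations, not from the labels. In IRES small intestine the correlation was 0.373, the same for both numbers because each gate had only 2 arrays. In the DTR line (-0.112 to 0.154) and the wild type (-0.0232 to 0.165) not every pair exceeded 0.1, so the numbers were not taken to pair. Whether equally numbered arrays there share an animal is unknown. The main fits held no replicate term, so their p-values leave any pairing out. The replicate block was run as an alternative.

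Members and lists were chosen with earlier results of these data known. Text names the 10 hormones, Lgr5, Aqp5 and Chga, and from each list up to 4 called genes with the smallest p, or, without a call, the 2 smallest. Mboat4 and Scgn were named in addition, after their values were seen. For each hormone the 3 genes with the highest Pearson correlation are named. Alternatives were a fit over all 42 arrays, trended robust eBayes, array weights, median centring, quantile normalization, the mean of probe sets, a filter at 5 on the log2 scale, the replicate block, leaving out each array, and, added after the data were seen, the sorted groups of a comparison alone.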

Additional observations from a re-analysis of the deposited data

Results flagged for a closer look

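For 6 of 40 combinations of a hormone and a group of 4 arrays, 1 array stood apart from the rest of its group, where chance gives about 1 in 20. Cck was lowest in the wild-type Aqp5Pos array numbered 3, at 4.05. Sct was lowest in the IRES pylorus Lgr5Hi array numbered 1, at 4.46. Nts was lowest in the Aqp5Pos array numbered 2, at 2.80, and highest in the Aqp5Neg array numbered 3, at 3.54. Tac1 was highest in the IRES pylorus Lgr5Hi array numbered 3, at 3.34, and in the Lgr5Lo array numbered 3, at 4.85. All but the last of these values lie under the highest array median of 4.52.

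The whole colon array numbered 1, used in no comparison of hormones between groups, had Sst at 10.79 and Ghrl at 11.59, above every other colon array. The other whole colon array had 6.99 and 5.02. Gast was 5.13 and 5.20 in the same 2 arrays.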

How the results depend on the processing

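No hormone call turned its direction under any alternative run. Counts of hormones called moved by more than 1.5 times as follows. Under 1 fit over all 42 arrays, DTR Lgr5Hi against Lgr5Neg gave 1 in place of 3, DTR Lgr5Lo against Lgr5Neg 0 in place of 1, IRES pylorus Lgr5Hi against Lgr5Lo 3 in place of 1, small intestine Lgr5Hi against Lgr5Lo 1 in place of 0, and Lgr5Lo pylorus against colon 8 in place of 5. Over all genes these fits called 1515, 24, 780, 155 and 2352 in place of 4062, 488, 330, 41 and 1407. With trended robust eBayes, DTR Lgr5Lo against Lgr5Neg gave 2, IRES pylorus 0, wild type 0 in place of 1, and Lgr5Hi small intestine against colon 3 in place of 5. Quantile normalization gave 0 in the wild type (410 of all genes in place of 621). Array weights gave 3 in colon Lgr5Hi against Lgr5Lo in place of 0 (135 of all genes in place of 0), and 2 in crypts against Lgr5Lo in place of 1 (2573 in place of 1365). The filter on low values gave 2 in DTR Lgr5Hi against Lgr5Lo in place of 0 (1692 of all genes in place of 1102) and 2 in crypts. With the replicate block, IRES pylorus gave 2 (564 of all genes in place of 330) and crypts 2 (Gcg and Tac1). The crypt numbers were not taken to pair (correlation 0.0022). The block moved no other count of hormones. It was not run between tissues, whose arrays share no block. Leaving out 1 array gave 0 to 2 in DTR Lgr5Hi against Lgr5Lo, 0 to 2 in IRES pylorus, 0 to 2 in wild type, 0 to 1 in small intestine, 2 to 6 in Lgr5Hi small intestine against colon, 1 to 2 in crypts, and 0 to 1 in the interaction of pylorus and colon. Smaller moves over the alternatives took DTR Lgr5Hi against Lgr5Neg to 2 (quantile normalization, or without any 1 Lgr5Neg array) and 4 (low values filtered), Lgr5Lo pylorus against small intestine to 6 and 7 from 8, Lgr5Lo pylorus against colon to 4 and 6, Lgr5Lo small intestine against colon to 5 and 6 from 7, Lgr5Hi pylorus against small intestine to 5 and 8 from 7, Lgr5Hi pylorus against colon to 4, 5 and 7 from 6, and Lgr5Hi small intestine against colon to 4 and 6. The cause was not tested. The small intestinal gates had 2 arrays each, which limits their precision.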

Other observations

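Whole small intestine was measured on 1 array. Its levels were 10.38 for Gip, 9.08 for Cck, 9.68 for Sct, 7.85 for Gcg, 10.55 for Sst, 10.08 for Ghrl, 6.57 for Tac1, 4.04 for Pyy and 3.23 for Nts. Pyy and Nts stood below both small intestinal Lgr5Lo arrays (6.17 and 5.70 for Pyy, 6.69 and 5.96 for Nts) and both crypt arrays (6.07 and 5.84, 7.82 and 8.00). With 1 array there is no spread and no test.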
